A study of Mus musculus with 4 samples.

Results

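The 10 chemokine genes Ccl2, Ccl7, Ccl20, Cxcl1, Cxcl2, Cxcl5, Cxcl10, Cxcl12, Cxcl16 and Cx3cl1 were followed across cultures of mouse hepatocyte origin. They were chosen by gene symbol from a table of 24493 genes, and all 10 were found in it. The series holds 4 RNA sequencing libraries, made without treatment from the hepatocyte clones 15C7 and 19H5 of C57BL/6 mice. Each clone gave a Bil_2D library (biliary cells derived from hepatocytes, grown in 2D) and a Hep_3D library (hepatocytes grown in 3D). Clone 15C7 is numbered 1 and clone 19H5 is numbered 2 in both groups, and each pair of values is given in that order, the Bil_2D libraries as the biliary pair and the Hep_3D libraries as the hepatocyte pair. Cell state and culture format changed together in every library and cannot be told apart. The labels give neither the age of the mice nor whether the clones came from separate animals, so p-values measure only the spread between these libraries, which may be partly technical.

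Chemokines are small secreted proteins that draw leukocytes along a gradient by binding receptors on their surface. Cxcl1, Cxcl2 and Cxcl5 act on Cxcr2 and attract neutrophils, Ccl2 and Ccl7 act on Ccr2 and attract monocytes, and Ccl20 acts on Ccr6 of lymphocytes and dendritic cells. Cxcl10 is an interferon-induced ligand of Cxcr3, Cxcl12 is a homeostatic ligand of Cxcr4, and Cxcl16 and Cx3cl1 are made as membrane-anchored proteins that proteases can release. In liver, bile duct epithelium and hepatocytes can both make chemokines when stimulated, mainly through the transcription factor NF-kB.

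Values are TPM, the length-corrected share of each gene, so levels of different genes can be set side by side. The sum of hepatocyte markers separated the groups: the summed TPM of 8 markers was 49000 and 47200 in the Hep_3D libraries against 2020 and 434 in Bil_2D. In Hep_3D that sum was mostly Apoa1 and Alb. Cyp2e1, the ethanol-metabolising P450, did not exceed 3.53 TPM in any library. Ttr stood at 1160 and 125 TPM in the biliary pair and 4330 and 3870 in the hepatocyte pair. Krt19, the keratin of bile ducts, stood at 752 and 1615 TPM in the biliary pair and 1.12 and 15.9 in the hepatocyte pair, while the biliary marker Epcam did not exceed 2.59 TPM. The biliary marker Spp1 went the other way, with 4180 and 6090 TPM in the biliary pair and 13100 and 9280 in the hepatocyte pair. The 8 biliary markers, mostly Spp1, summed to 5800 and 9360 TPM in Bil_2D and to 13200 and 9450 in Hep_3D, so their sum did not mark the biliary state. The 12336 genes tested had a median log2 fold change (Hep_3D minus Bil_2D, on log2(TPM + 1), which understates changes of low genes) of -0.73. Dividing each library by a size factor (the median over genes of its ratio to the geometric mean library) brought that median to -0.02, and values made in this way are called rescaled and given beside the others. Of all genes, 51.9% were lower and 6.8% higher in Hep_3D before rescaling, against 9.54% and 11.9% after it (limma, adjusted p under 0.05). Higher genes thus made up 11.6% of the calls before and 55.5% after rescaling. Of 8 hepatocyte markers tested, 5 were higher and 0 lower in Hep_3D, before and after rescaling. Ttr, Serpina1a and Cyp2e1 did not pass before rescaling (adjusted p = 0.055, 0.0662 and 0.667 in limma). Of 7 biliary markers tested, 4 were lower and 1 higher (Spp1) in Hep_3D before rescaling, and 2 and 1 after it. With clone as a replicate block before rescaling, 5 of the biliary markers were lower and 0 higher, beside 58.1% and 7.93% of all genes. With 2 libraries in each group the smallest p of an exact permutation test is 0.333, so no such test was run.

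The 10 genes summed to 5216 and 5677 TPM in Bil_2D 15C7 and Bil_2D 19H5, and to 235.8 and 1049 TPM in Hep_3D 15C7 and Hep_3D 19H5. Fewer cells of a type and less RNA per cell cannot be told apart in these bulk samples. Ccl2, Cxcl5 and Cxcl1 made up 84.5% and 92.5% of that sum in Bil_2D and 68% and 89.2% in Hep_3D. Of the 10 genes, 5 fell in Hep_3D (Ccl2, Ccl7, Ccl20, Cxcl2 and Cxcl16), where 51.9% of all genes tested fell, and 1 rose (Cxcl12), where 6.8% rose. After rescaling 1 fell (Ccl20), against 9.54% of all genes, and 1 rose (Cxcl12), against 11.9%. The median log2 fold change of the 10 genes was -2.11 before and -1.32 after rescaling, against -0.73 and -0.02 for all genes. All 10 reached 1 TPM in 2 or more libraries and so entered the fit. With clone as a replicate block 5 fell (Ccl2, Ccl20, Cxcl1, Cxcl2 and Cxcl16; 58.1% of all genes) and 1 rose (Cxcl12; 7.93%), and after rescaling in addition 3 fell (Ccl2, Ccl20 and Cxcl1; 11.7%) and 1 rose (Cxcl12; 14.1%). Without the block the counts of falls before and after rescaling, 5 and 1 of 10, lie near the shares over all genes. The groups did not overlap for 8 genes that were lower in Hep_3D (71.9% of all genes were lower in this way) and for 1 that was higher (11.1%). After rescaling 5 were lower without overlap (34.7% of all genes) and 1 was higher (33.6%).

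**Figure D1:**
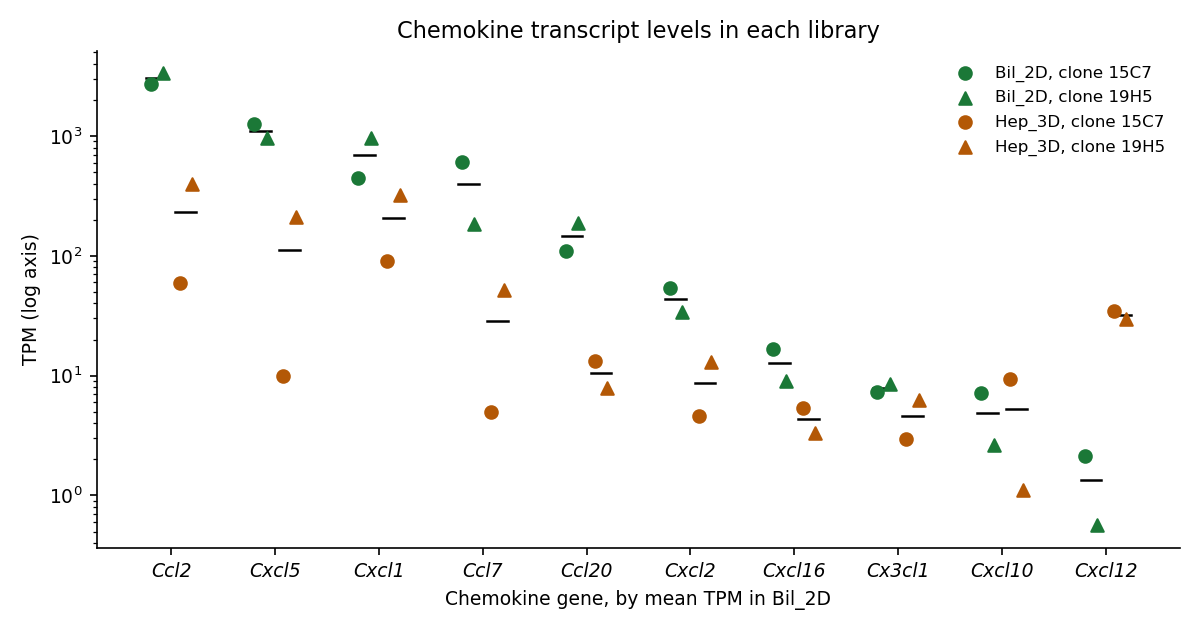
TPM of each chemokine gene (log axis) in each of the 4 libraries; colour gives the group, circles are clone 15C7, triangles are clone 19H5, and black lines are group means. The Ccl2 points run from 59.7 TPM in Hep_3D 15C7 to 3332 TPM in Bil_2D 19H5, and Cxcl12 is the gene whose Hep_3D points both lie above the Bil_2D points.

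By mean TPM the order of the 10 genes in Bil_2D was Ccl2, Cxcl5, Cxcl1, Ccl7, Ccl20, Cxcl2, Cxcl16, Cx3cl1, Cxcl10 and Cxcl12. The 2 libraries of neighbouring genes in this order overlapped for Cxcl1 with Ccl7 and for Ccl7 with Ccl20, and did not overlap for the other neighbours, although Cxcl5 at its lower library (962 TPM) and Cxcl1 at its higher (958 TPM) almost met. In Hep_3D the order was Ccl2, Cxcl1, Cxcl5, Cxcl12, Ccl7, Ccl20, Cxcl2, Cxcl10, Cx3cl1 and Cxcl16, and each neighbouring pair overlapped. Ranked among all genes of its library, Ccl2 stood at rank 37 and 32 in Bil_2D and at rank 1652 and 285 in Hep_3D.

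The monocyte attractant Ccl2 had the highest mean level of the 10 genes in both groups. Ccl2 (chromosome 11, 82035571 to 82037453, mm10) had 2715 and 3332 TPM in Bil_2D 15C7 and Bil_2D 19H5 and 59.7 and 400.2 in Hep_3D 15C7 and Hep_3D 19H5. Both Bil_2D libraries were above both Hep_3D libraries, and the Hep_3D library of clone 19H5 was 6.71 times that of clone 15C7. Mean levels were 3024 ± 436 and 230 ± 241 TPM (SD, n = 2), a log2 fold change of -4.27 (SE 0.94; adjusted p = 0.0213 in limma). The rescaled log2 fold change of -3.46 missed the threshold (adjusted p = 0.0743), and passed with clone as a replicate block (0.0461). Before rescaling the adjusted p was 0.0877 without Bil_2D 15C7 and 0.0944 without Bil_2D 19H5, and the log2 fold change was -2.91 without Hep_3D 15C7 and -5.63 without Hep_3D 19H5. Ccl7, its neighbour 8.3 kb away, stood at 611 and 184 TPM in the biliary pair and 4.96 and 52.2 in the hepatocyte pair. The groups were again separate, with the highest value in the Bil_2D library of clone 15C7 and the lowest in the Hep_3D library of the same clone. Ccl7 fell by 4.24 on the log2 scale (SE 1.23; adjusted p = 0.0423), but its adjusted p was 0.0647 with clone as a replicate block and 0.124 after rescaling. It was 0.17 without Bil_2D 15C7, 0.0852 without Bil_2D 19H5 and 0.0952 without Hep_3D 15C7, where the log2 fold change was -2.66, and it was -5.82 without Hep_3D 19H5.

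Ccl20, the attractant of Ccr6-bearing lymphocytes and dendritic cells (chromosome 1, 83116766 to 83119167), was the member whose fall passed before and after rescaling. It stood at 109 and 187 TPM in the biliary pair and 13.3 and 7.83 in the hepatocyte pair. The libraries of each group lay close together relative to the gap between groups. Its log2 fold change was -3.67 (SE 0.38; adjusted p = 0.0058), and -2.89 after rescaling (adjusted p = 0.0176). Before rescaling it passed as each library was left out, with adjusted p from 0.0296 to 0.0444. After rescaling the adjusted p was 0.0695 and 0.104 without Bil_2D 15C7 and Bil_2D 19H5, and 0.0597 and 0.0834 without Hep_3D 15C7 and Hep_3D 19H5.

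The neutrophil attractants Cxcl5, Cxcl1 and Cxcl2 were lower in both Hep_3D libraries than in either Bil_2D library before rescaling, and Cxcl1 overlapped between the groups after it. Cxcl5 (chromosome 5, 90759360 to 90761624) stood at 1252 and 962 TPM in the biliary pair and 9.86 and 212 in the hepatocyte pair. The groups did not overlap, but the Hep_3D library of clone 19H5 was 21.4 times that of clone 15C7. Its log2 fold change of -4.51 was the most negative of the 10 genes and missed the threshold (SE 1.47; adjusted p = 0.0565; 0.152 after rescaling). The 95% interval of the difference ran from -8.50 to -0.53. Before rescaling the log2 fold change of Cxcl5 was -2.37 without Hep_3D 15C7 and -6.66 without Hep_3D 19H5. It was -4.32 and -4.7 without Bil_2D 15C7 and Bil_2D 19H5. After rescaling the left-out values of Cxcl5 ran from -5.9 to -1.53.

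Cxcl1 (chromosome 5, 90891241 to 90893115) stood at 442 and 958 TPM in the biliary pair and 90.9 and 324 in the hepatocyte pair. Within each clone Bil_2D was higher, 4.86 times in 15C7 and 2.96 times in 19H5, and the clone 19H5 library was the higher of the pair in both groups. The log2 fold change was -1.91 (SE 0.74; adjusted p = 0.0842), with a 95% interval from -3.91 to 0.08. After rescaling it was -1.10 and also missed the threshold (adjusted p = 0.354 in limma). With clone as a replicate block Cxcl1 passed before and after rescaling (adjusted p = 0.0107, and 0.0474 after rescaling). Before rescaling its log2 fold change was -2.47 without Bil_2D 15C7 and -1.36 without Bil_2D 19H5. It was -1 without Hep_3D 15C7 and -2.82 without Hep_3D 19H5. After rescaling the left-out values of Cxcl1 ran from -2.04 to -0.16. Cxcl2 (chromosome 5, 90903871 to 90905938) stood at 54.2 and 33.8 TPM in the biliary pair and 4.58 and 12.9 in the hepatocyte pair, without overlap. Cxcl2 fell by 2.31 on the log2 scale (SE 0.52; adjusted p = 0.0225) and stood at -1.55 after rescaling, where it did not pass (adjusted p = 0.113). Its adjusted p was 0.107 without Bil_2D 15C7, 0.0667 without Bil_2D 19H5 and 0.0528 without Hep_3D 15C7.

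The promoters of Cxcl1 and Cxcl2 are shown because these neighbouring genes carry the same NF-kB word at a like distance from the start, and those of Ccl20, Cxcl10 and Cxcl12 because these members behaved differently from one another. Each sequence is the 250 bases before the RefSeq gene start (GRCm38.p6), 5′ to 3′ on the gene's strand. Capitals mark matches to the NF-kB consensus on either strand and, in Cxcl10, to the interferon element core, GAAA followed after any 2 bases by another GAAA. The windows are chr5:90890995-90891244 (+) for Cxcl1, chr5:90903649-90903898 (+) for Cxcl2, chr1:83116516-83116765 (+) for Ccl20, chr5:92348890-92349139 (-) for Cxcl10 and chr6:117168285-117168534 (+) for Cxcl12.
Cxcl1: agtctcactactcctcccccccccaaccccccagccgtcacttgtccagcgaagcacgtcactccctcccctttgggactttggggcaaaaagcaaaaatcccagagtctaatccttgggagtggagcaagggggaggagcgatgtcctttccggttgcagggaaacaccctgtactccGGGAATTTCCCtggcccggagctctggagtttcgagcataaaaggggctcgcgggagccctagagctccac
Cxcl2: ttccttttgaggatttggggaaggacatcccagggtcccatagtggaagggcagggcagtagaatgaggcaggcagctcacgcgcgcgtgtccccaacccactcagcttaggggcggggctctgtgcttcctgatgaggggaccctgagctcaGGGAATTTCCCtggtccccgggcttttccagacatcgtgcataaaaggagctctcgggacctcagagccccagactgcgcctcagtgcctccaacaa
Ccl20: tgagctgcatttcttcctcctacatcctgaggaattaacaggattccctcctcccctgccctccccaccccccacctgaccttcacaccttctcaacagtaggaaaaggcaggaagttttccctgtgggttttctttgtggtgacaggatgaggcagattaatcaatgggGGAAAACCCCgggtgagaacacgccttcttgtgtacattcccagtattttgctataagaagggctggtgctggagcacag
Cxcl10: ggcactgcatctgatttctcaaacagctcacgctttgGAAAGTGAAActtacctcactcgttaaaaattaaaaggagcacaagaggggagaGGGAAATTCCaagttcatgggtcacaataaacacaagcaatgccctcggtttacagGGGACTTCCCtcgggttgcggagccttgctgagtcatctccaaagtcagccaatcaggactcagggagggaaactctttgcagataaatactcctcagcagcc
Cxcl12: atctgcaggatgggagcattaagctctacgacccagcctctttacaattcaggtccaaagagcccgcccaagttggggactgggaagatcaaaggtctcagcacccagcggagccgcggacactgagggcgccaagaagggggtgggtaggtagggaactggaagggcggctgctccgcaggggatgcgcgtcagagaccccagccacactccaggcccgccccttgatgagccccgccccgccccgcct

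Cxcl1 and Cxcl2 both held GGGAATTTCC, at 71 to 62 bases before the start in Cxcl1 and at 97 to 88 in Cxcl2, and in each gene a consensus match on the other strand overlapped it. This word was read from these 2 windows themselves and was in 0.0853% of the 32841 promoter windows of this length. Its share therefore does not measure how unusual the match is. Any match to the NF-kB consensus was in 3.9%. Ccl20 had 1 consensus match, 80 to 71 bases before its start. Cxcl10 had 2, at 159 to 150 and 103 to 94, together with GAAAGTGAAA at 213 to 204, a match to the interferon core that 2.98% of windows hold. Cxcl12 and Cx3cl1 had no match to either motif in this window. Promoters of 6 of the 10 genes were in the RefSeq table, and Ccl2, Ccl7, Cxcl5 and Cxcl16 were not shown. The motifs were chosen with the sequences in view and describe letters, not binding.

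Cxcl1 and Cxcl2 also shared AU-rich stretches in their 3′ untranslated regions, the kind of element through which decay factors shorten the life of cytokine messages. The word ATTTA occurred 7 times in 592 bases of Cxcl1 and 11 times in 734 bases of Cxcl2 (GENCODE M21), or 11.8 and 15 per kb, and Ccl20 had 11.1 per kb. The other 7 genes had from 0.534 (Cx3cl1) to 4.6 per kb (Ccl7), beside a median of 1.3 over the tested genes. The longer word TTATTTATT was in Cxcl1, Cxcl2 and Cx3cl1 and in 7.4% of tested genes. The densest stretches of 25 bases, with ATTTA in capitals, lie at chr5:90892609-90892633 (+) in Cxcl1 and chr5:90905332-90905356 (+) in Cxcl2.
Cxcl1: ctATTTATTTAtgtATTTATTTAtt
Cxcl2: ATTTAtctatgtATTTATTTATTTA

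Cxcl12 was the member that rose. This ligand of Cxcr4 (chromosome 6, 117168535 to 117181367) stood at 2.14 and 0.564 TPM in the biliary pair and 34.8 and 29.5 in the hepatocyte pair. Both Hep_3D libraries were close together and far above both Bil_2D libraries, 16.3 times within clone 15C7 and 52.3 times within clone 19H5. The Bil_2D values lay near or under the filter of 1 TPM, so the size of these ratios is uncertain. The log2 fold change was 3.90 (SE 0.39; adjusted p = 0.0057), and 4.50 after rescaling (adjusted p = 0.00555). It passed in all 19 alternative fits of this comparison, with adjusted p from 0.00361 to 0.0494 and log2 fold changes from 2.56 to 4.92. The fibroblast and stellate marker Dcn stood at 2.38 and 0 TPM in the biliary pair and 178 and 2.79 in the hepatocyte pair, and 9 of 11 markers of that list stayed under 1 TPM in every library. Their part in the Cxcl12 values was not tested. Of the 2 genes that passed after rescaling, Ccl20 was lower and Cxcl12 higher in Hep_3D.

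**Figure D2:**
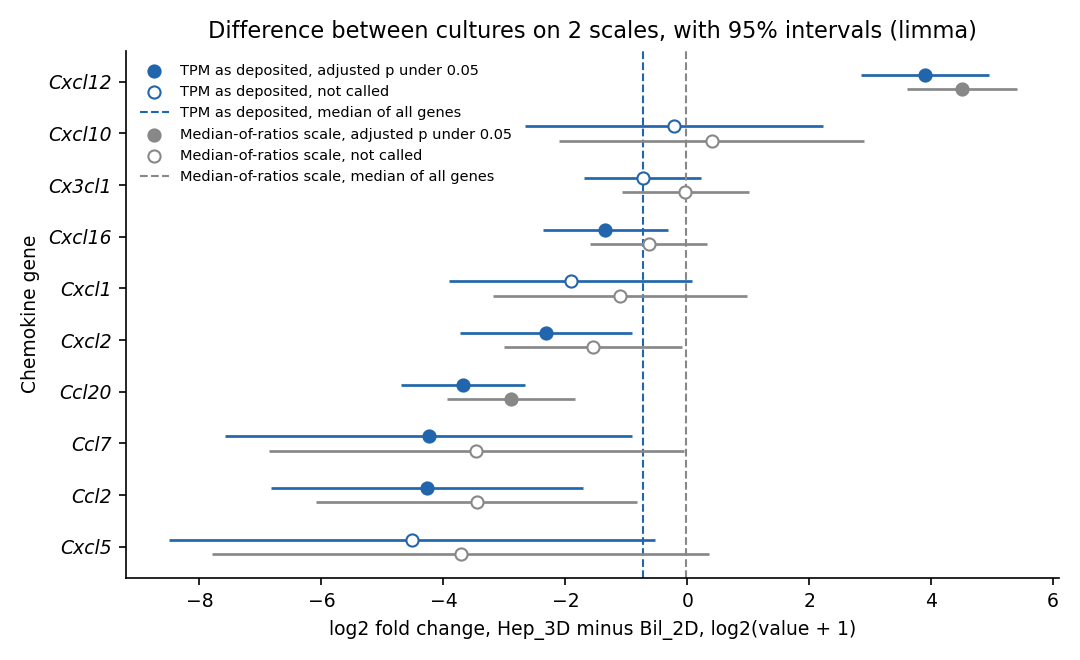
Log2 fold change of each chemokine gene, Hep_3D minus Bil_2D (points), with 95% intervals from limma (bars), on TPM as deposited (blue) and after rescaling (grey). Filled points have an adjusted p under 0.05, and dashed lines are the medians of all genes tested, -0.73 and -0.02; Cxcl12 (3.90 and 4.50) and Ccl20 (-3.67 and -2.89) are filled before and after rescaling.

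The remaining members were low. Cxcl16, a membrane-anchored ligand of Cxcr6 (chromosome 11, 70453983 to 70459984), stood at 16.7 and 9 TPM in the biliary pair and 5.41 and 3.29 in the hepatocyte pair. Its fall of 1.34 on the log2 scale passed (SE 0.38; adjusted p = 0.0395), while -0.63 after rescaling did not (adjusted p = 0.263), and there the groups overlapped. The call was lost as each library was left out: the adjusted p was 0.141 and 0.0556 without Bil_2D 15C7 and Bil_2D 19H5, and 0.074 and 0.159 without Hep_3D 15C7 and Hep_3D 19H5. Cx3cl1 (fractalkine, chromosome 8, 94772009 to 94782427) stood at 7.33 and 8.48 TPM in the biliary pair and 2.94 and 6.31 in the hepatocyte pair. Its log2 fold change was -0.73 (adjusted p = 0.141; 95% interval from -1.69 to 0.23), the same as the median of all genes, and -0.03 after rescaling (95% interval from -1.07 to 1.01). Cxcl10, the interferon-induced ligand of Cxcr3 (chromosome 5, 92346638 to 92348889), stood at 7.22 and 2.62 TPM in the biliary pair and 9.42 and 1.1 in the hepatocyte pair. Its groups overlapped, and its libraries sorted by clone, with both 15C7 libraries above both 19H5 libraries. The log2 fold change was -0.22 (adjusted p = 0.847), and the 95% interval from -2.67 to 2.23 covers differences of several-fold in both directions.

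Some values could be affected by other genes. Of 2121 stretches of 31 bases in Cxcl2 transcripts, 161 (7.59%) also occur in Cxcl3, so the separate values of these genes are uncertain; Ccl2, Ccl7, Ccl20, Cxcl1, Cxcl10, Cxcl16 and Cx3cl1 shared 0 such stretches with another gene. Genes on the opposite strand overlap Cxcl10 (Art3, at most 0.152 TPM) and Cxcl16 (Zmynd15, at most 2.29 TPM). Gm17268, also on the opposite strand, overlaps Ccl2 over its whole length of 1883 bases. No TPM value was given under that symbol, so its level is unknown. The sources used here do not state whether the libraries kept strand.

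The clones were compared with cell state as a term in the fit, which left 1 residual degree of freedom. In limma 0 of 12336 genes passed (0% called higher and 0% lower), and 0 passed after rescaling, while 13% had an unadjusted p under 0.05. Among the 10 chemokines 3 had an unadjusted p under 0.05. Cxcl1 was higher in 19H5 in both states, 2.17 times in Bil_2D and 3.56 times in Hep_3D (log2 difference 1.47, SE 0.22; adjusted p = 0.27 in limma). Cxcl10 was lower in 19H5 in both states, 0.363 and 0.117 of the 15C7 level (log2 difference -1.75, SE 0.35; adjusted p = 0.307). Cxcl16 was also lower in 19H5 in both, 0.54 and 0.608 of the 15C7 level (log2 difference -0.70, SE 0.16; adjusted p = 0.326).

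For other members the ratio between clones was larger in Hep_3D than in Bil_2D. In Hep_3D the 19H5 library exceeded the 15C7 library 6.71 times for Ccl2, 10.5 times for Ccl7, 2.82 times for Cxcl2 and 21.4 times for Cxcl5. In Bil_2D the same ratios were 1.23, 0.301, 0.624 and 0.768. Seen within clones, Bil_2D exceeded Hep_3D 45.5 times in 15C7 and 8.33 times in 19H5 for Ccl2, 123 and 3.53 times for Ccl7, and 127 and 4.54 times for Cxcl5. Ccl20 went the other way, with 8.15 times in 15C7 and 23.8 times in 19H5. With 1 library per clone and state these differences between clones could not be tested. The biliary keratins Krt19 and Krt7 and the membrane protein Tspan8 had 1.12, 3.9 and 6.97 TPM in Hep_3D 15C7 and 15.9, 56.4 and 62 TPM in Hep_3D 19H5. Their part in the chemokine values was not tested.

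Ccl2 and Cxcl5 had the highest mean TPM of the 10 genes over the 4 libraries, and their nearest profiles over the 4 libraries were sought by Euclidean distance between log2(TPM + 1) values centred on each gene's mean. The genes nearest to Ccl2 were Mboat1 (distance 0.63 log2 units), Tspan8 (0.85) and Krt7 (0.9). Mboat1, a lysophospholipid acyltransferase, stood at 70.7 and 102 TPM in the biliary pair and 1.15 and 6.87 in the hepatocyte pair. Those nearest to Cxcl5 were the small nucleolar RNA Snord58b (1.04), Krt7 (1.22) and Ccl2 itself (1.23). With 4 libraries these distances only describe shape.

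Both chemokine clusters that hold several of the 10 genes were expressed in part. On chromosome 5, from Cxcl5 to Cxcl2, the genes Cxcl5, Cxcl3, Cxcl1 and Cxcl2 were expressed in every library. Between and beside them the platelet chemokines Ppbp and Pf4 and the lung chemokine Cxcl15 did not exceed 6.69, 0.808 and 0.993 TPM. Cxcl3, a further ligand of Cxcr2 that was not among the 10, stood at 87.3 and 162 TPM in the biliary pair and 4.3 and 49.4 in the hepatocyte pair. Its log2 fold change of -2.88 missed the threshold (adjusted p = 0.0926) and also after rescaling (0.271; 0.105 with the replicate block in addition). Before rescaling it passed with the replicate block (0.0318) and without Hep_3D 19H5 (0.0338), while without Hep_3D 15C7 the log2 fold change was -1.25 (0.118). On chromosome 11 Ccl2 and Ccl7 were expressed, while Ccl11, Ccl12 and Ccl8 did not exceed 0.199, 0 and 1.06 TPM.

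**Figure D3:**
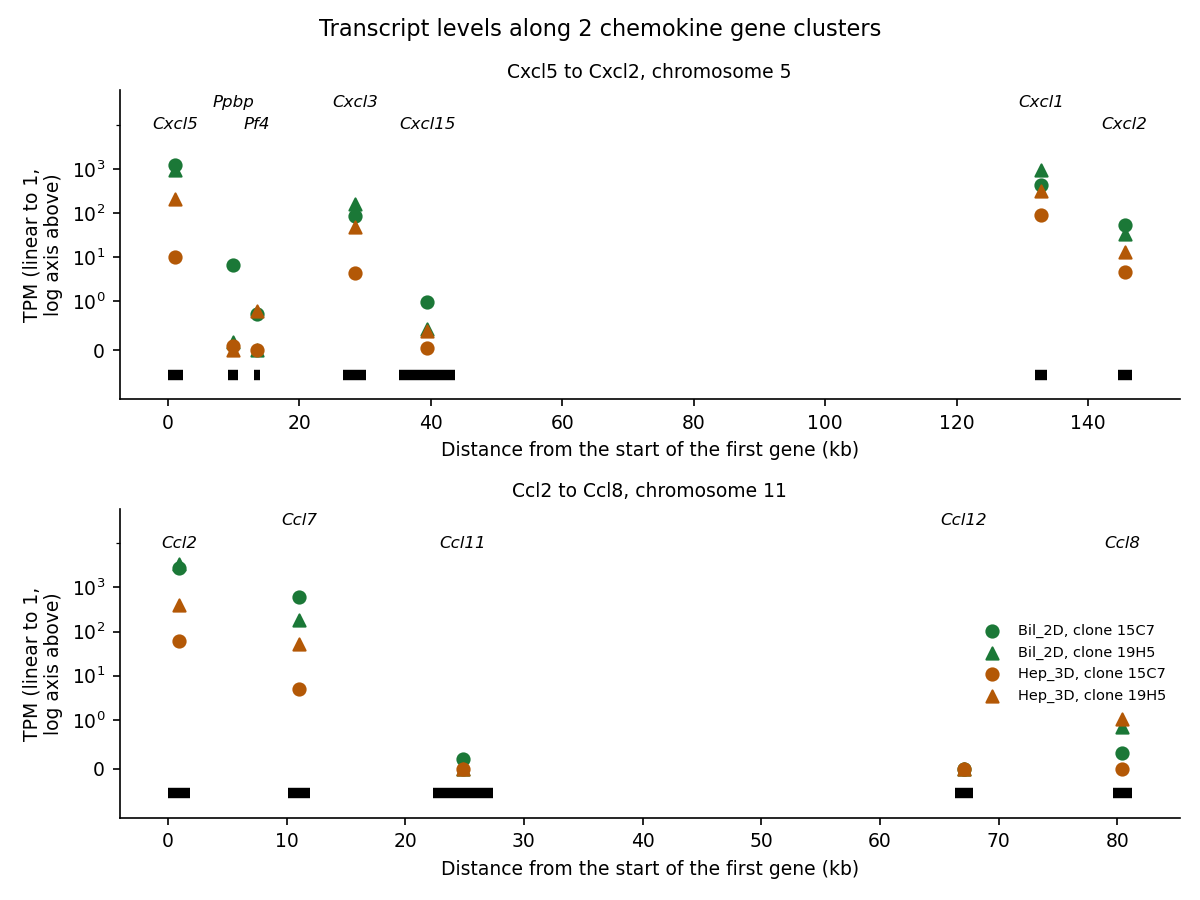
TPM (linear up to 1, log above) of each chemokine gene against its distance in kb from the first gene of 2 clusters; black boxes are the genes to scale, colour is the group and shape the clone. Cxcl5, Cxcl3, Cxcl1 and Cxcl2 in the upper panel and Ccl2 and Ccl7 in the lower panel are expressed, while no other gene shown exceeds 6.69 TPM.

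Among 30 other chemokine genes in the table, 18 stayed under 1 TPM in every library and 6 were tested, of which 2 rose and 1 fell, beside 6.8% and 51.9% of all genes. The counts were 2 and 0 after rescaling, beside 11.9% and 9.54%, and 1 and 3 with the replicate block, beside 7.93% and 58.1%. Before rescaling fewer of the 6 passed as each library was left out, and fewer of all genes as well. Cxcl17, a chemokine-like product of mucosal epithelium, stood at 14.1 and 49.5 TPM in the biliary pair and 199 and 100.2 in the hepatocyte pair (log2 fold change 2.36, adjusted p = 0.043; 3.16 and 0.0458 after rescaling). Its adjusted p was 0.0657 with the replicate block, 0.105 without Bil_2D 15C7, and 0.173 and 0.0909 without Hep_3D 15C7 and Hep_3D 19H5. Ccl9, a macrophage inflammatory protein of rodents, stood at 4.83 and 0.563 TPM in the biliary pair and 20 and 12.9 in the hepatocyte pair (log2 fold change 2.50, adjusted p = 0.0385). Ccl9 lost its call without Bil_2D 19H5 (0.0618) and without Hep_3D 15C7 and Hep_3D 19H5 (0.157 and 0.111). Ccl25, a ligand of Ccr9, fell by 1.22 on the log2 scale (adjusted p = 0.0235; 0.195 after rescaling), and its adjusted p was 0.056 to 0.103 as each library was left out. Ccl27a stood at 16.8 and 9.37 TPM in the biliary pair and 10.2 and 3.98 in the hepatocyte pair and did not pass (adjusted p = 0.202; 0.0257 with the replicate block). The 10 genes held 97.2% and 96.1% of all chemokine TPM in Bil_2D and 49.3% and 85.8% in Hep_3D, where Cxcl17 took most of the rest.

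Receptors for these ligands were barely present. Of 23 chemokine receptor genes, 20 stayed under 1 TPM in every library, and the list summed to 6.3 and 5.66 TPM in the biliary pair and 4.53 and 3.55 in the hepatocyte pair. Ccr2, Ccr6, Cxcr3, Cxcr4 and Cxcr6, the receptors of Ccl2 and Ccl7, Ccl20, Cxcl10, Cxcl12 and Cxcl16, did not exceed 0.199, 0.0985, 0.0489, 0.208 and 0.0451 TPM. The atypical receptors Ackr1, Ackr2 and Ackr3 did not exceed 0.0736, 0.241 and 0.453 TPM. Cxcr2, the receptor of the neutrophil attractants, stood at 1.45 and 1.53 TPM in the biliary pair and 1.32 and 0.573 in the hepatocyte pair (adjusted p = 0.296). Cx3cr1, the receptor of Cx3cl1, stood at 1.34 and 1.13 TPM in the biliary pair and 0.257 and 0.375 in the hepatocyte pair and fell by 0.76 on the log2 scale (adjusted p = 0.0448), a call lost after rescaling (0.236) and as each library was left out (0.0799 to 0.142).

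Genes upstream of chemokine transcription were measured in lists drawn up with earlier results of these data known. Of 26 NF-kB pathway genes tested, 0 rose and 16 fell (51.9% of all genes fell), with a median log2 fold change of -0.76 beside -0.73 for all genes. After rescaling 2 rose (Birc3 and Tab2, named after their values were seen) and 4 fell, beside 11.9% and 9.54% of all genes. After rescaling fewer of the NF-kB genes fell as each library was left out, and fewer of all genes as well. With no library left out, the 4 that fell before and after rescaling were Tnfaip3, Nfkbia, Nfkbiz and Nfkb1, of which the first 2 encode feedback inhibitors of the pathway. Tnfaip3 (A20) stood at 50.6 and 41.4 TPM in the biliary pair and 5.24 and 8.82 in the hepatocyte pair (log2 fold change -2.58, adjusted p = 0.00606; -1.82 and 0.0252 after rescaling). Nfkbia, the inhibitor IkB-alpha, stood at 176 and 196 TPM in the biliary pair and 34.5 and 55.6 in the hepatocyte pair (log2 fold change -2.06, adjusted p = 0.00733; -1.25 and 0.049). Nfkbiz, a nuclear co-activator of NF-kB, and Nfkb1, its p50 subunit, fell as well, with log2 fold changes of -2.20 and -1.98, and of -1.43 and -1.19 after rescaling (adjusted p = 0.0402 and 0.0174).

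Receptors for the inducing cytokines moved in both directions: 6 of 21 rose and 5 fell, beside 6.8% and 51.9% of all genes, or 9 and 1 after rescaling, beside 11.9% and 9.54%. As each library was left out, fewer of these receptors rose and fewer fell, before and after rescaling. The same held for all genes. Il1r1, the interleukin-1 receptor, stood at 12.5 and 6.87 TPM in the biliary pair and 47 and 56.6 in the hepatocyte pair (log2 fold change 2.35, adjusted p = 0.00761), and Il6ra, the interleukin-6 receptor, rose by 2.39 on the log2 scale (adjusted p = 0.00598). Ifngr1, a chain of the interferon-gamma receptor, stood at 89.9 and 244 TPM in the biliary pair and 31.6 and 38.4 in the hepatocyte pair. It fell by 2.06 on the log2 scale (adjusted p = 0.0283; 0.17 after rescaling), and lost the call without Hep_3D 15C7 (0.121) or Hep_3D 19H5 (0.102). Tlr2, a receptor for bacterial lipopeptides, fell by 1.59 (adjusted p = 0.0078; 0.0436 after rescaling; 0.0506 without Bil_2D 19H5).

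Most of the other inflammatory cytokines tested were lower in Hep_3D before and after rescaling. Of 9 tested, 0 rose and 7 fell before rescaling, and 6 fell after it, beside 51.9% and 9.54% of all genes. After rescaling fewer of the cytokines fell as each library was left out, and fewer of all genes as well. Csf2, which encodes GM-CSF, stood at 19.4 and 26.7 TPM in the biliary pair and 0.0957 and 0.342 in the hepatocyte pair (log2 fold change -4.29, adjusted p = 0.00354; -3.82 and 0.00552 after rescaling). Csf1, the macrophage growth factor M-CSF, stood at 158 and 123 TPM in the biliary pair and 9.86 and 15.3 in the hepatocyte pair (log2 fold change -3.40, adjusted p = 0.00474). Lif and Il11, both of the interleukin-6 family, fell, with log2 fold changes of -2.85 and -2.76 (adjusted p = 0.00548 and 0.00573). Csf3 and Il18 did not pass (adjusted p = 0.607 and 0.475 in limma), and Il6, at most 2.1 TPM, was not tested. Csf3 stood at 9.44 and 5.13 TPM in the biliary pair and 0.469 and 14.2 in the hepatocyte pair. These 3 were named after their values were seen. In Hep_3D Csf1 had 9.86 and 15.3 TPM where Cxcl5 had 9.86 and 212.

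Genes of the interferon response, the companions of Cxcl10, counted 0 higher and 8 lower of 15 tested, a share of falls near the 51.9% of all genes. After rescaling 0 were higher and 0 lower, beside 11.9% and 9.54% of all genes. With libraries left out fewer fell before rescaling, and fewer of all genes as well. Values with libraries left out are given in the order Bil_2D 15C7, Bil_2D 19H5, Hep_3D 15C7 and Hep_3D 19H5. The transcription factor Irf1 stood at 38.3 and 47.4 TPM in the biliary pair and 16.6 and 16.4 in the hepatocyte pair (log2 fold change -1.32, adjusted p = 0.00718; 0.106 after rescaling). Gbp2 and the RNA sensor Ddx58 fell, with log2 fold changes of -1.60 and -1.36 and with adjusted p of 0.0845 and 0.131 after rescaling. With libraries left out in the order above, the adjusted p was 0.0467, 0.066, 0.0514 and 0.0778 for Gbp2 and 0.0785, 0.0517, 0.0468 and 0.0747 for Ddx58. Irf9, a partner of the Stat factors, fell by 0.97 (adjusted p = 0.0109; 0.326 after rescaling), with 0.0693 and 0.0642 without Bil_2D 15C7 and Bil_2D 19H5 and 0.0519 without Hep_3D 19H5.

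Proteases and carriers that act on the proteins were measured as well. Of 6 shedding and trimming proteases tested, 0 rose and 5 fell, beside 51.9% of all genes, with a median log2 fold change of -0.87 beside -0.73. After rescaling 0 rose and 0 fell, beside 11.9% and 9.54% of all genes. Before rescaling fewer of the proteases fell as each library was left out, and fewer of all genes as well. Adam17 and Adam10, the proteases that release Cx3cl1 and Cxcl16, fell, with log2 fold changes of -1.48 and -1.43 (adjusted p = 0.00606 and 0.0103), and after rescaling their adjusted p was 0.0562 and 0.133. The adjusted p of Adam10 was 0.06 without Bil_2D 15C7. Mmp14, a membrane metalloproteinase that can trim Cxcl12, fell by 1.02 (adjusted p = 0.0286; 0.549 after rescaling), and its adjusted p was 0.127, 0.0912 and 0.0617 without Bil_2D 15C7, Bil_2D 19H5 and Hep_3D 19H5. Rhbdf2, a partner of Adam17, fell by 0.71 before rescaling (adjusted p = 0.0487) but stood at 0.07 after rescaling (0.846), and missed the threshold with the replicate block (0.051); without Bil_2D 15C7, Bil_2D 19H5 and Hep_3D 19H5 its adjusted p was 0.145, 0.175 and 0.127.

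Of 7 factors that destabilise or protect AU-rich messages, 0 rose and 6 fell, beside 51.9% of all genes. After rescaling 1 fell, beside 9.54%. That call was lost as each library was left out, where fewer of all genes fell as well. Zfp36l2, a decay factor, stood at 136 and 177 TPM in the biliary pair and 45.6 and 56.8 in the hepatocyte pair (log2 fold change -1.59, adjusted p = 0.00733; 0.0803 after rescaling). Hnrnpd (AUF1), Elavl1 (HuR, a stabiliser) and Khsrp had log2 fold changes of -1.56, -1.38 and -1.32 and fell, with adjusted p of 0.0495, 0.0506 and 0.0825 after rescaling. Of 15 heparan sulfate carriers and enzymes, which hold chemokines at the cell surface, 1 rose and 4 fell, beside 6.8% and 51.9% of all genes. The counts were 2 and 1 after rescaling, beside 11.9% and 9.54%, and 2 and 6 with the replicate block, beside 7.93% and 58.1%. Before rescaling fewer of them fell as each library was left out, and fewer of all genes as well. After rescaling the rises were lost in each of these fits, and the fall in most of them. Hspg2, the basement membrane proteoglycan perlecan, stood at 28.9 and 18.4 TPM in the biliary pair and 2.71 and 0.88 in the hepatocyte pair (log2 fold change -3.19, adjusted p = 0.00783; -2.55 and 0.0285 after rescaling). Sdc2 (syndecan-2) rose by 1.08 on the log2 scale (adjusted p = 0.0148), but the adjusted p was 0.0639, 0.0695 and 0.0516 without Bil_2D 19H5, Hep_3D 15C7 and Hep_3D 19H5. Gpc6 and Hs2st1 fell, with log2 fold changes of -1.23 and -1.12 and with adjusted p of 0.115 and 0.302 after rescaling. Without Bil_2D 15C7 and Bil_2D 19H5 the adjusted p was 0.0724 and 0.0551 for Gpc6 and 0.102 and 0.0653 for Hs2st1; it was 0.0576 for Gpc6 without Hep_3D 15C7 and 0.0732 for Hs2st1 without Hep_3D 19H5.

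**Figure D4:**
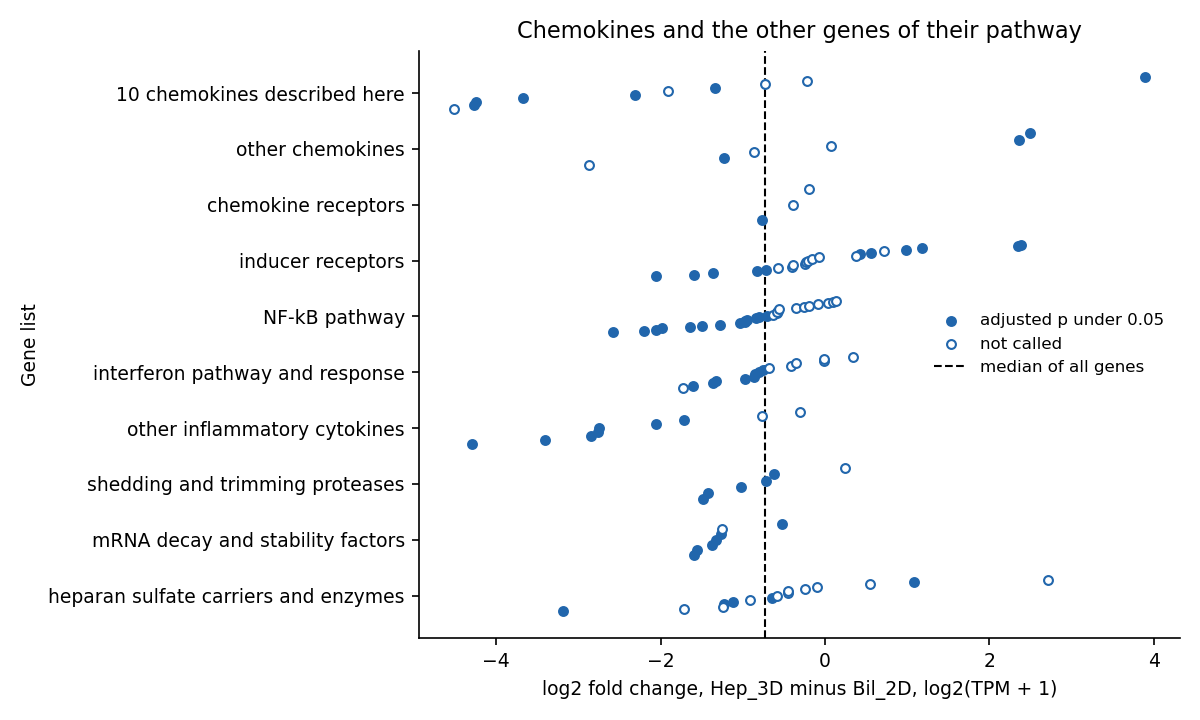
Log2 fold change (Hep_3D minus Bil_2D, log2(TPM + 1)) of each tested gene in the chemokine list and in 9 lists of their pathway; filled points have an adjusted p under 0.05 in limma and the dashed line is the median of all genes, -0.73. The 7 cytokines that fell lie left of the line, while the NF-kB list has its median (-0.76) beside it.

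Markers of other cells that make chemokines were set beside these results. Of 11 macrophage and leukocyte markers, 6 stayed under 1 TPM in every library, and the defining markers Ptprc, Adgre1, Clec4f and Cd3e did not exceed 0.0598, 0.0277, 0.0752 and 0 TPM. The 11 markers summed to 140 and 232 TPM in the biliary pair and 501 and 512 in the hepatocyte pair, almost all of it Cd14, which hepatocytes also express (129 and 213 against 491 and 483 TPM). Cd68, a lysosomal protein abundant in macrophages, stood at 4.5 and 11.7 TPM in the biliary pair and 0.674 and 1.74 in the hepatocyte pair, higher in Bil_2D as Ccl2 was (log2 fold change -1.96, adjusted p = 0.0322; 0.141 after rescaling). S100a8, a calcium-binding protein of neutrophils, stood at 3.7 and 4.19 TPM in the biliary pair and 6.71 and 25.6 in the hepatocyte pair (adjusted p = 0.0985), Csf1r reached 1.69 TPM and Lyz2 1.22 TPM. The part of these markers in the chemokine values was not tested. Of 11 fibroblast and stellate markers 9 stayed under 1 TPM in every library, with sums of 5.08 and 1.37 in Bil_2D and 180 and 3.71 in Hep_3D. In Hep_3D that sum was mostly Dcn (adjusted p = 0.163; 0.0479 with the replicate block), while Col1a1, Col3a1 and Pdgfrb did not exceed 1.17, 0.151 and 0.312 TPM. All 8 endothelial markers stayed under 1 TPM, and of 6 mesothelial markers Msln alone exceeded it (324 and 828 TPM in Bil_2D, 2.76 and 9.92 in Hep_3D).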

How the data were processed

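Total RNA of 4 cultures was sequenced at Novogene after purification on RNeasy columns (Qiagen), per the labels' protocols. The table deposited by the authors gives TPM per gene symbol with the same sum in each library, so depth was unknown and no count model was fitted. Salmon, DESeq2 and mm10 are listed in the submitters' processing notes without versions or roles, and the annotation is not given in the sources used here. Groups came from the sample titles, with 2 libraries each. The 12336 genes that reached 1 TPM in 2 or more libraries entered limma 3.58.1 in R 4.3.3 as log2(TPM + 1) (eBayes with a trend; 2 residual degrees of freedom, prior 2.29), and p-values were adjusted over all of them by the Benjamini-Hochberg method. The fit was also run on simulated data with independent noise of the same spread in every gene. That setting left out pairing by clone and unequal spreads, so it does not cover them. The clone numbers in the labels pair the libraries, and across genes the deviations from the group mean of libraries of 1 clone had a correlation of 0.414. For rescaled values, median-of-ratios size factors computed from the TPM divided each library and set the groups apart by 0.82 log2 units.

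The 10 genes and all lists were chosen with earlier results of these data known. Named genes were the members, the 4 largest called changes of each list with the largest opposite one, receptors of the members, other chemokines at 5 TPM or more in a group, and the 3 nearest profiles of the 2 most abundant members; Krt19, Krt7, Epcam, Cyp2e1 and the cell markers were named besides as checks. Promoters are from RefSeq (GRCm38.p6), and gene positions and transcripts from GENCODE M21, both on the deposited build. Untranslated regions were taken from 1 principal transcript per gene. Figures were drawn with matplotlib 3.10.9. As alternatives the pseudocount was set to 0.1 or 5, the filter to none or 5 TPM, and the rest were median-of-ratios and quantile scaling, leaving out the 50 most abundant genes, eBayes without a trend or robust, clone as a block, and leaving out each library, the last 2 also after rescaling. With a library left out, the lone sample left in its group is assumed to vary as the other group does.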

Additional observations from a re-analysis of the deposited data

Results flagged for a closer look

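Cxcl10 moved in opposite directions in the clones, which is why it is listed here. From Bil_2D to Hep_3D it went from 7.22 to 9.42 TPM in clone 15C7, a log2(TPM + 1) difference of 0.34. In clone 19H5 it went from 2.62 to 1.1 TPM, a difference of -0.78. With 1 library per clone and state, the difference between the clones was not tested.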

How the results depend on the processing

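Cxcl12 kept its direction and its call in all 19 alternative fits, and Ccl20 in 15. Among the alternative values of the 10 genes, 124 kept direction and side of the threshold, 48 fell short of it, 8 newly passed and 10 reversed. Of the 10 genes 5 were lower in Hep_3D as reported, against 3 without a filter, 1 after rescaling, 2 after quantile normalization and 1 without the 50 most abundant genes. As each library was left out 1 to 6 were lower, and 0 to 2 after rescaling in addition (0 without Bil_2D 15C7, Bil_2D 19H5 or Hep_3D 15C7, and 2 without Hep_3D 19H5), while 1 was higher in each of these. Among all genes 7241 were called as reported, against 2642 after rescaling, 3100 after quantile normalization, 3350 without the 50 most abundant genes, 2627 to 4537 as each library was left out, and 340, 188, 818 and 611 without Bil_2D 15C7, Bil_2D 19H5, Hep_3D 15C7 and Hep_3D 19H5 after rescaling. The cause was not tested beyond the fewer samples of the left-out fits. With clone as a replicate block 8150 genes were called, with 5 of the 10 lower and 1 higher, and after rescaling 3194 genes, with 3 lower and 1 higher. Before rescaling the block changed no call of the 10 genes or of the other named pathway genes beyond those given in the report.

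Reversed log2 fold changes came from 6 genes whose values as reported lay between -1.02 and -0.22, and the cause was not tested. For Cxcl10 the reversed values were 0.40 after rescaling (also with the replicate block), 0.36 after quantile normalization and 0.18 without the 50 most abundant genes. Without Bil_2D 15C7 and Hep_3D 19H5 they were 0.37 and 0.93, and 0.93 and 1.61 after rescaling. Before rescaling the left-out values of Cxcl10 ran from -1.38 to 0.93. Leaving out a library after rescaling reversed Cx3cl1 (0.09 without Bil_2D 19H5, 0.46 without Hep_3D 15C7), Ccl27a (0.21 without Bil_2D 15C7, 0.45 without Hep_3D 19H5) and Mmp14 (0.08 without Hep_3D 19H5). Cxcr2 stood at 0.05 after rescaling (also with the replicate block), 0.01 after quantile normalization, and 0.01, 0.09 and 0.36 without Bil_2D 15C7, Bil_2D 19H5 and Hep_3D 19H5 after rescaling. Rhbdf2 stood at 0.07 after rescaling (also with the replicate block), and 0.15 and 0.30 without Bil_2D 19H5 and Hep_3D 19H5 after rescaling.

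In the comparison of clones 0 genes passed in limma under each alternative run. TPM keep no depth, so the counting error of low values such as those of Cxcl10, Cx3cl1, the receptors and Cxcl12 in Bil_2D is unknown.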
